A study of Mus musculus with 9 samples.

Results

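The myogenic lineage factors examined here are 9 genes, the 4 myogenic bHLH factors Myod1, Myf5, Myf6 and Myog, the 3 MEF2 genes Mef2a, Mef2c and Mef2d, and the 2 PAX genes Pax3 and Pax7. They were taken by name from the mouse GENCODE annotation on mm10, and are 9 of 21938 protein-coding genes compared. Accessible sites were counted within 1 kb of any annotated transcription start of these genes (the promoter), and over each gene body with 10 kb on either side, which held 50 of the 128522 sites in the data. The question was which of these genes have no called peak at the promoter in fibroblasts, and whether any gained one without ANP32E or after H2A.Z knockdown.

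Primary mouse embryonic fibroblasts (MEFs) below passage 8 were profiled by ATAC-seq, an assay in which a transposase cuts and tags exposed DNA. Wild-type (WT) MEFs gave 3 libraries and Anp32e null MEFs, which lack the H2A.Z chaperone ANP32E, gave 3. From null cells given a pool of non-targeting (NT) siRNAs 1 library was made, and from null cells given H2A.Z siRNAs 2. Both siRNA groups are therefore null for Anp32e, and WT cells with siRNA are not among the 9 libraries. A further replicate of the H2A.Z knockdown experiment was set aside by the study as over-tagmented. The libraries of a group were merged before peaks were called, so each group is 1 peak list, no difference below has a replicate check, and no p-value is given. Intervals are exact 95% intervals and cover counting error only.

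Skeletal muscle identity is set by a small network of transcription factors. PAX3 and PAX7 mark the progenitors of embryonic muscle and the satellite cells of adult muscle. MYF5 and MYOD commit cells to the lineage, and myogenin (Myog) and MRF4 (Myf6) act in differentiation. These bHLH proteins bind E-boxes together with E proteins, and the MEF2 proteins, which are also made in many non-muscle cells, bind A/T-rich elements beside them. Fibroblasts do not normally express the muscle bHLH factors, and forced MYOD expression can turn them into muscle cells.

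The peak lists held 84040 peaks in WT, 82567 in the null, 89272 after NT siRNA and 108409 with H2A.Z siRNA. The number of fragments stacked at each summit (the pileup) was recovered from the deposited values, and divided by the commonest local background of its list (the genome-wide background) to give an enrichment. This background was 8.85, 5.12, 3.88 and 17.82 fragments in the same order. At that background the smallest pileup that could be called was 19 fragments in WT (2.15 times background), 13 in the null (2.54 times), 11 after NT siRNA (2.84 times) and 32 with H2A.Z siRNA (1.80 times). These limits rise where the local background is higher. A site without a peak is thus one below its local limit, not one shown to be inaccessible. A site open in fewer cells also cannot be told apart from one less open in each cell. Of 18 fibroblast marker genes, 16 had a promoter peak in every list, and Lum and Postn had none in any. Promoter peaks were also called in WT at 3 of 6 epithelial, 4 of 6 endothelial, 2 of 6 blood and 4 of 6 neuronal markers, beside 67.2% of all protein-coding genes. The epithelial markers numbered 3 in the null and 5 in both siRNA lists. The endothelial marker Pecam1 was called in WT and not in the null, and the blood marker Spi1 with H2A.Z siRNA and not NT siRNA, and what other cells add to the results below was not tested.

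The sequences below are of the Myog promoter, which had no peak in any list, and of sites to which the results return. Each is written 5′ to 3′ on the strand of its gene, from GRCm38 (mm10), and capitals mark matches to the motifs searched, which are described further on. The Myog promoter is the 250 bases before the RefSeq start, from the RefSeq promoter set for GRCm38.p6, which held 6 of the 9 genes, and the others are 200 bases centred on a summit. The Myog and Myf6 sites were chosen after their values were seen, and the rest by call and fold enrichment.
Myog promoter, chr1:134289754-134290003, plus strand: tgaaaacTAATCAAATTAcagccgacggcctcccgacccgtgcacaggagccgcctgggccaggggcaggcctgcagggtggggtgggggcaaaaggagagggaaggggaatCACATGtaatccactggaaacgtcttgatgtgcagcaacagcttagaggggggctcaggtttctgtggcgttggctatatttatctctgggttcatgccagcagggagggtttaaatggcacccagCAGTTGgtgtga
Myog upstream site, chr1:134288398-134288597, plus strand: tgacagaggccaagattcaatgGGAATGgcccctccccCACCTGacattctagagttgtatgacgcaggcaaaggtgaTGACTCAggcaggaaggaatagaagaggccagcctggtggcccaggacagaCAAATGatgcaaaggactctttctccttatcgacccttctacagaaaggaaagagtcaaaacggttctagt
Myf6 intronic site, chr10:107493412-107493611, minus strand: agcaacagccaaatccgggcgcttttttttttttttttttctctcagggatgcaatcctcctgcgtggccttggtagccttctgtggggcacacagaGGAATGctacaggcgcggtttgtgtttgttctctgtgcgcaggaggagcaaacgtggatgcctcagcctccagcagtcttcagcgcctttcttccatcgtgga
Mef2a promoter summit, chr7:67373148-67373347, minus strand: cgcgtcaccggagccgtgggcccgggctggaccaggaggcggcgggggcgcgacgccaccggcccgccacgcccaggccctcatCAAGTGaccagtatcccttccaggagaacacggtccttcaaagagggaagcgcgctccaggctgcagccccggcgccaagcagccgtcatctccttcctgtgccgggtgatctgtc
Mef2c intronic site called in every null list and not in WT, chr13:83518375-83518574, plus strand: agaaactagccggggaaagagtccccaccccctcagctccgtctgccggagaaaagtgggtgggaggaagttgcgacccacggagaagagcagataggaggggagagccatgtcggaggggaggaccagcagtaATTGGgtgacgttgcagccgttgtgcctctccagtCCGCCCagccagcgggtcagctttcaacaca
Pax7 intronic site called in every null list and not in WT, chr4:139751581-139751780, minus strand: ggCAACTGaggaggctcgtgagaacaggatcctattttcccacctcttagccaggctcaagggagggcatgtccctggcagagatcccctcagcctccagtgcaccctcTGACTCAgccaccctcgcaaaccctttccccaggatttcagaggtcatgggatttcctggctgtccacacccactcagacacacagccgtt
Mef2a intronic site called in WT alone, chr7:67283633-67283832, minus strand: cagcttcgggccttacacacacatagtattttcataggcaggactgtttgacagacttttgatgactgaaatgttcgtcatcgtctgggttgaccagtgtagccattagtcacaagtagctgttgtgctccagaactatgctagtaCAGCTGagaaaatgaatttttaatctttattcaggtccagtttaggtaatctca

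The MEF2 genes and Pax3 had a promoter peak in every list, and Myog and Pax7 had one in none. Promoter peaks were called at 6 of the 9 genes in WT, 7 in the null, 4 after NT siRNA and 4 with H2A.Z siRNA. Over all protein-coding genes the share with a promoter peak was 67.2%, 66.7%, 66.8% and 68.4%. A promoter peak in every list was seen at 63.8% of all genes and at 4 members, and in no list at 28.8% of all genes and at 2 members. By this count, which takes any start of a gene, the genes whose call differed between lists were Myod1, Myf5 and Myf6, while single internal starts also differed at Mef2c and Mef2d.

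**Figure D1:**
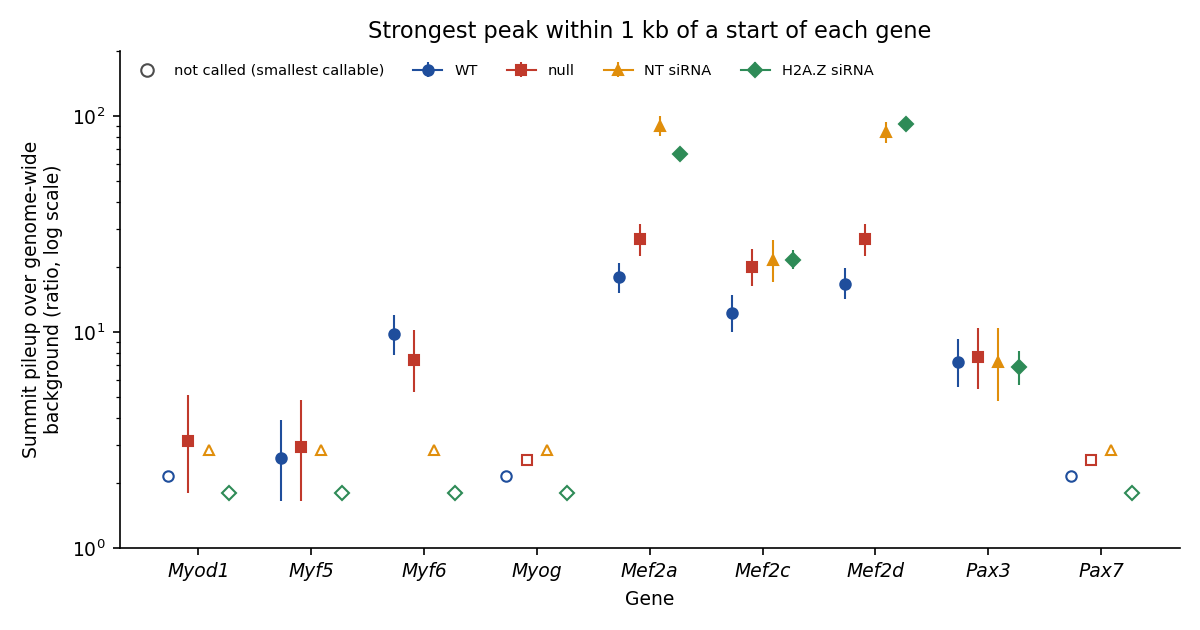
Summit pileup over the genome-wide background (log axis) of the strongest peak within 1 kb of a start of each gene, by peak list. Filled points are called peaks with exact 95% Poisson intervals, and open points are lists without a promoter peak, drawn at the smallest enrichment that list could call (2.15, 2.54, 2.84 and 1.80). The MEF2 genes and Pax3 lie well above these limits in every list, while the Myod1 and Myf5 peaks lie next to them.

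Myod1, the factor that can convert fibroblasts to muscle, lies at chr7:46376474-46379099. It had no promoter peak in WT or in either siRNA list, where the nearest peak was 19578, 16746 and 16629 bp from the start. In the null a peak of 341 bp was called with its summit in the first coding exon, 260 bp downstream of the start. Its pileup was 16 fragments (95% interval 9.15 to 26.0), an enrichment of 3.12 with a lower limit of 1.79. WT had no peak there to give a local background, so that of the null peak was used, scaled to the genome-wide background of WT. By that estimate WT would have called a pileup of 20 fragments, an enrichment of 2.26. The null value could thus not be told from one that WT would have missed. The peak stood at the 6.43rd percentile of fold enrichment in its list, and 0.349% of all called null promoters had a smaller pileup.

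Myod1 was the 1 member of the 3 without a WT promoter peak that had one in the null. Of all protein-coding promoters without a peak in WT, 4.26% were called in the null, and 0.365% of all promoters were called in the null alone. At a threshold of 5 or more on the deposited −log10 q scale the Myod1 peak, at 2.63, was lost, while it was kept with pileups scaled to the lowest background and with equal numbers of peaks. Without ANP32E, no member gained a promoter peak clear of the detection limit.

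Myf5, the first of the bHLH factors to appear in the embryo, lies at chr10:107482908-107486134, next to Myf6. Its promoter peak had 23 fragments in WT (enrichment 2.60) and 15 in the null (2.93), and none was called in either siRNA list. These are weak peaks, at the 10.5th and 4.97th percentiles of their lists, and the lower limit of the null value, 1.64, was under the 2.84 that the NT siRNA list could call. With pileups scaled to the background of the NT siRNA list, the WT peak of Myf5 was lost and the null peak was kept. Calls in WT and the null but in neither siRNA list were made at 0.921% of all promoters.

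Myf6, which encodes MRF4, lies at chr10:107492853-107494737. The peak that reached its promoter had 86 fragments in WT (enrichment 9.72) and 38 in the null (7.42). Its summit was in an intron, 1225 bp from the start and outside the 1 kb window, which only the edge of the peak entered. The same site was called after NT siRNA with 35 fragments (9.02) and after H2A.Z siRNA with 112 (6.29), but there the edges stopped 1056 and 1059 bp from the start. Myf6 is thus counted as a promoter call in WT and the null and not in the siRNA lists through the position of peak edges, since the WT and null edges were 861 and 922 bp from the start.

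Myog, the differentiation factor myogenin, lies at chr1:134289989-134292548 and had no promoter peak in any list. The nearest peak edge was 1479 bp away in WT, 1302 in the null, 1233 after NT siRNA and 1091 with H2A.Z siRNA. This upstream site, at chr1:134288198-134288898, had its summit 1.49 kb before the start. Its pileup was 23 fragments in WT, 14 in the null, 17 after NT siRNA and 146 with H2A.Z siRNA. In enrichment these were 2.60, 2.73, 4.38 and 8.19, so that WT and the null lay near the limit of detection and the H2A.Z siRNA value was the highest of the 4. The site stood at the 1.38th and 2.58th percentiles of fold enrichment in WT and the null, the 14.9th after NT siRNA and the 65.9th with H2A.Z siRNA. Scaled to the lowest background, that of the NT siRNA list, the WT and null peaks were lost and the other peaks were kept.

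Mef2a, a broadly expressed MEF2 gene at chr7:67231163-67372858, had one of the strongest promoters of the set. The pileup was 158 fragments in WT, 137 in the null, 348 after NT siRNA and 1188 with H2A.Z siRNA, with the summit 390 bp before the main start in 3 of the 4 lists. The enrichments were 17.9, 26.8, 89.7 and 66.7, higher in both siRNA lists than in either untransfected list. In fold enrichment, which takes the background around the peak into account, the promoter stood between the 88.5th and 91.6th percentiles of each list.

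Mef2d, at chr3:88142372-88172086, had similar pileups of 148, 137, 326 and 1632 fragments in the same order, with enrichments of 16.7, 26.8, 84.0 and 91.6. Its fold enrichment was only 3.87 to 4.59, since the local background under the promoter was 37.5 fragments in WT and 388 after H2A.Z siRNA. Mef2d also had the densest sites, 24.1 per 100 kb, which was more than at 96.8% of protein-coding genes, where the median was 8.70.

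Mef2c, at chr13:83504034-83667080, was open at internal starts and not at its main one. No peak was called within 1 kb of the main start (that of its lowest-numbered principal transcript), and the nearest was 19480 bp away in WT and 13996 bp in the null. Of its 27 annotated starts, promoter peaks in every list lay at starts beside the sites 19.9 and 148.1 kb downstream. The first had pileups of 141, 95, 85 and 354 fragments and the second 108, 102, 83 and 384. The enrichment of the second was 12.2, 19.9, 21.4 and 21.5, and the interval of its change from WT to the null included that of the median site, as given with the ratios further on. Another promoter site, 68.3 kb downstream and 52 bp from a start, was called in WT alone with 30 fragments.

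Pax3 and Pax7, the paralogous progenitor factors, differed from each other. Pax3, at chr1:78101267-78197134, had promoter pileups of 64, 39, 28 and 122 fragments. Its enrichments of 7.23, 7.62, 7.22 and 6.85 were nearly level across the lists. In fold enrichment, over the local background, Pax3 had 4.48, 4.12, 5.53 and 6.33, so that the order of the lists depended on the background used. Among called promoters the Pax3 pileup was low, above 17.6% of them in WT, 11.6% in the null list, 5.18% in the NT siRNA list and 9.14% in the H2A.Z siRNA list. Pax7, at chr4:139737062-139833528, had no promoter peak, and its nearest peak was 3273, 5482, 11655 and 9470 bp from the main start in WT, null, NT siRNA and H2A.Z siRNA lists.

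No member without a promoter peak in the NT siRNA list had one in the H2A.Z siRNA list, and none changed in the reverse direction. Over all promoters without a peak in the first list 6.2% had one in the second, and 1.53% in the reverse. No member without a null promoter peak had one in WT (5.67% of all such promoters) or after NT siRNA (6.1%). The null call and the NT siRNA list differed at Myod1, Myf5 and Myf6, which had a null promoter peak and none after NT siRNA, where 5.57% of all promoters without an NT siRNA peak were called in the null.

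**Figure D2:**
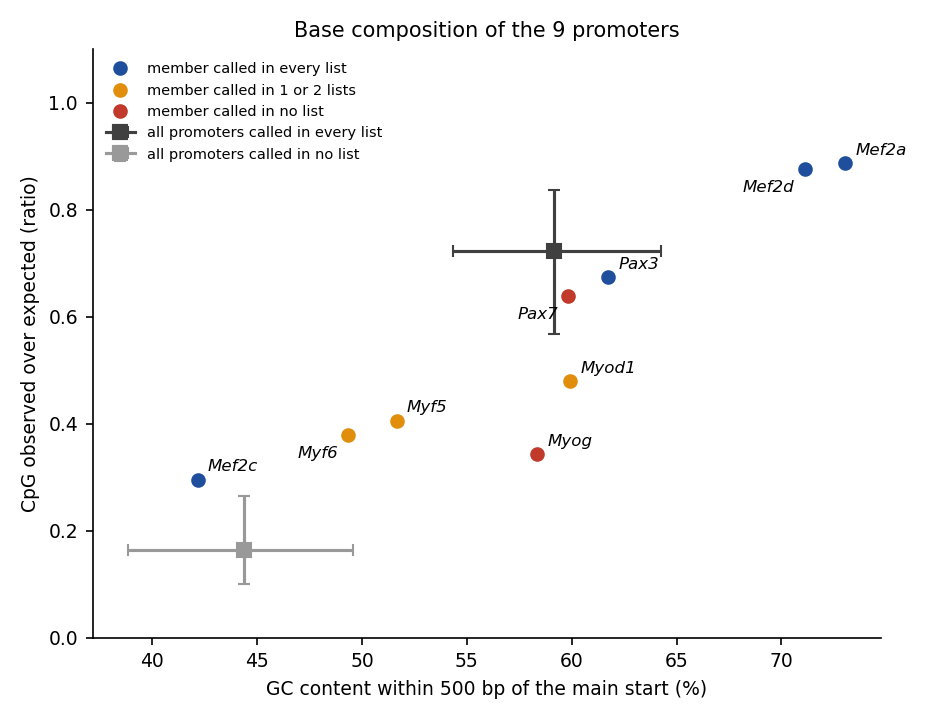
CpG observed over expected (ratio) against GC content (%) within 500 bp of the main start of each gene, coloured by the number of lists with a promoter peak. Squares are medians over all protein-coding promoters called in every list or in none, and bars run from the lower to the upper quartile. Pax7 lies with promoters called in every list, and Mef2c, whose main start lay in no peak and whose calls come from internal starts, beside promoters called in none.

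Base composition was measured within 500 bp of each main start. Over all genes, promoters called in every list had a median CpG ratio of 0.723 and GC content of 59.1% (n = 13986), and those called in none 0.165 and 44.4% (n = 6328). The promoters of Mef2a and Mef2d were CpG-rich, with ratios of 0.888 and 0.877, and that of Pax3 had 0.674. Pax7, without a peak, had 59.8% GC and a ratio of 0.638, a ratio above that of 97.8% of the promoters called in no list. Myog had 0.344 and 58.3% GC, and Myod1, Myf5 and Myf6 had ratios of 0.480, 0.406 and 0.379. The ratios of these genes were likewise above those of 85.2%, 94.0%, 89.9% and 88.1% of the promoters called in no list, in the same order. The main start of Mef2c, which lay in no peak, had 0.296 and 42.2% GC, and the internal starts that carried its calls were not measured.

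Across the gene bodies and their flanks, the 50 sites were 10 that reached a promoter of a member and 40 that did not, called distal. A distal site can lie at the start of another gene. The Mef2d site 35.4 kb downstream, for example, is 199 bp from the start of 1700113A16Rik. The bHLH genes held 6 of the 50 sites, the MEF2 genes 28 and the PAX genes 16, and sites shared by the neighbours Myf5 and Myf6 were counted once. Of the 50 sites, 35 were called in WT, 32 in the null, 35 in the NT siRNA list and 41 in the H2A.Z siRNA list. Over all sites the shares called were 63.8%, 62.4%, 67.2% and 84.2%, so the members' counts stood close to those of the genome. In every list 25 of the 50 were called, beside 45.9% of all sites.

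**Figure D3:**
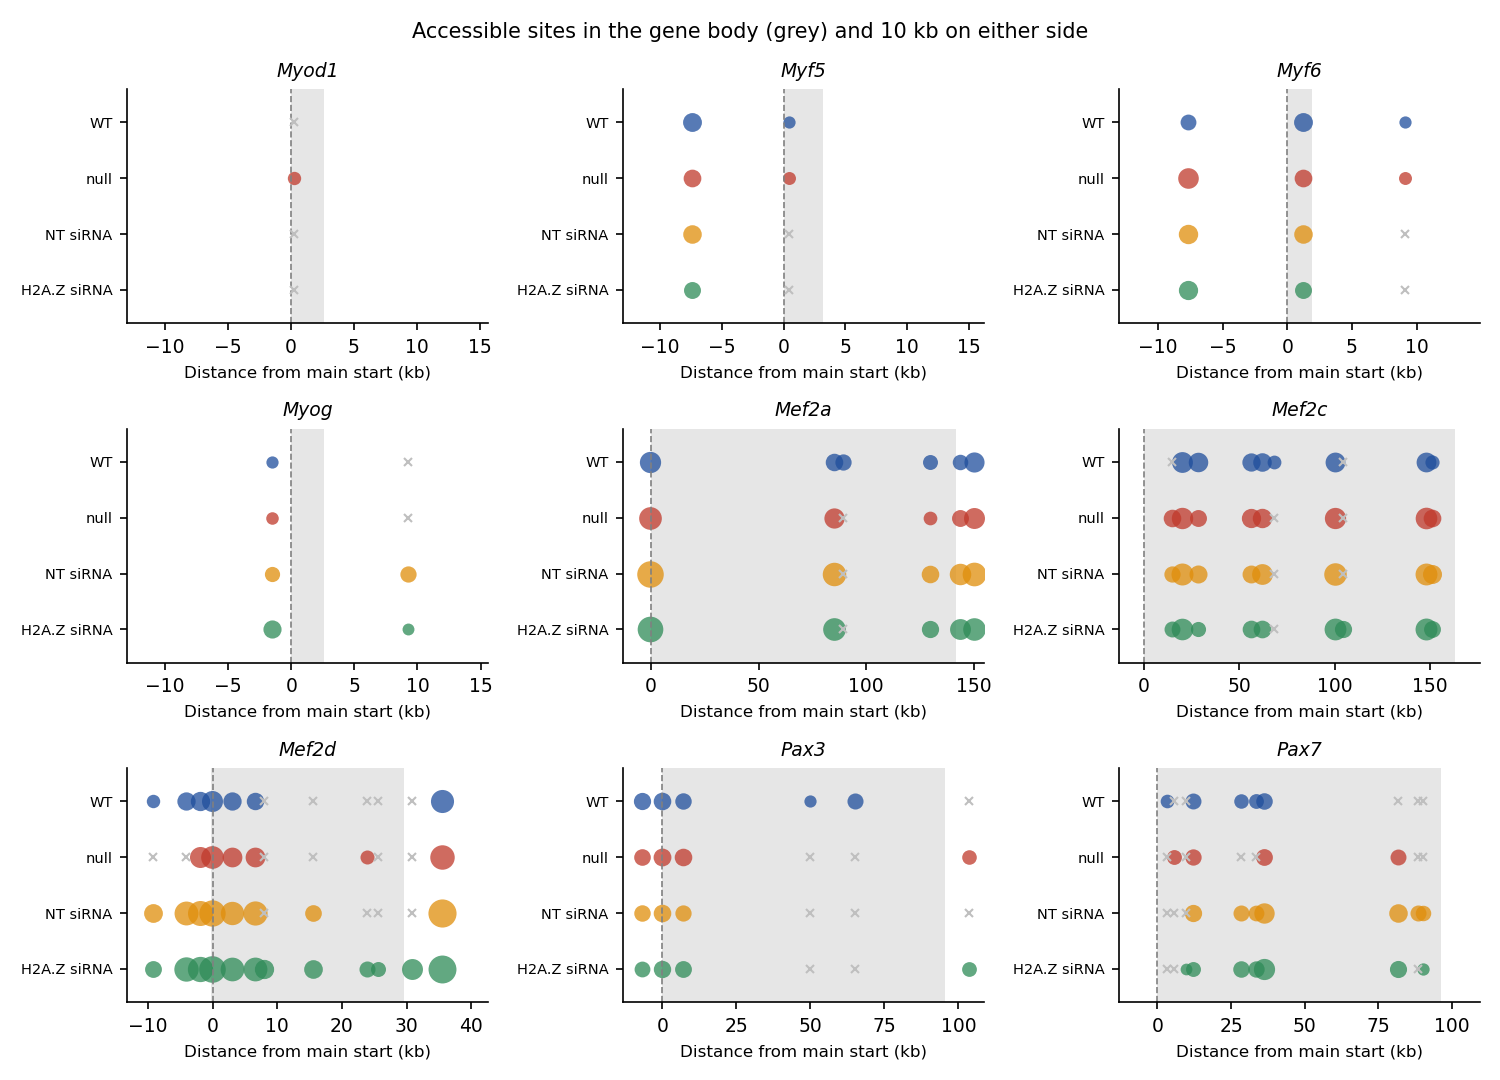
Sites of each gene by distance of the summit from the main start (kb, downstream to the right) and by peak list. Coloured circles are called peaks, with area proportional to the log2 of enrichment, and grey crosses are sites called only in another list. The grey band is the gene body. Most sites of Mef2a and Mef2c recur in every list, while several of Mef2d, Pax3 and Pax7 appear in 1 or 2.

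Between genotypes, 6 sites were called in the null and not in WT, and 9 in WT and not in the null. Over all sites these shares were 10.9% and 12.3%. The 6 gained calls were at Myod1, Mef2c, Mef2d and Pax3 (1 each) and at Pax7 (2), and the 9 lost calls were at Pax7 (3), Pax3 (2), Mef2d (2), Mef2a and Mef2c. Of the 6, 3 had a lower limit of enrichment above what WT was estimated to call. Of the 9, 3 lay above what the null was estimated to call. The corresponding shares over all sites that differed were 62.2% and 19.2%. Here and below, such an estimate used the local background of the list with the peak, scaled to the other list. Enrichments were not divided by the median ratio of all shared sites, 1.51 for null to WT. A value above its estimate is thus not shown to exceed that general shift.

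The Mef2c site 14.4 kb downstream of the main start, in an intron, was the strongest of the gained calls. It had 37 fragments in the null (enrichment 7.23, lower limit 5.09), 21 after NT siRNA (5.41) and 90 with H2A.Z siRNA (5.05), and no peak in WT, where 19 fragments (2.15) would have been called. The Pax7 site 81.8 kb downstream, also intronic, had 26, 35 and 116 fragments in the same lists (5.08, 9.02 and 6.51) and none in WT, where 22 fragments (2.49) would have been called. These 2 were the member sites called in all 3 lists without ANP32E and not in WT, beside 5.5% of all sites. The other gained call above its limit, 103.7 kb downstream of the Pax3 start and beyond the gene's end, had 20 fragments in the null and 72 after H2A.Z siRNA and was not called after NT siRNA.

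Of the lost calls, 3 cleared their estimated limit. The Mef2a intronic site 89.1 kb downstream had 48 fragments in WT (enrichment 5.42, lower limit 4.00) and was called in no other list, where the null would have called 13 (2.54). The Pax3 intronic site 65.1 kb downstream had 46 fragments in WT (5.20) and was likewise called in WT alone. The site 4.1 kb before Mef2d had 75 fragments in WT, no peak in the null, and 149 and 788 in the siRNA lists. Its WT lower limit of 6.67 was above a null limit of 6.45 (33 fragments) taken from the WT local background. By the NT siRNA local background the null limit was 21.9 (112 fragments), so whether this WT call cleared it depended on the list used. In all, 5 member sites were called in WT alone, beside 6.94% of all sites.

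After H2A.Z siRNA 7 sites were called that were not called after NT siRNA, and the reverse held for 1 site. Over all sites the shares were 20.7% and 3.65%. Of the 7, 4 were at Mef2d and 1 each at Mef2c, Pax3 and Pax7, and none was at a bHLH gene. The H2A.Z siRNA list had the highest background, and only 2 of the 7 had a lower limit above what the NT siRNA list would have called, beside 34.2% of all such sites. These were the Mef2c intronic site 104.3 kb downstream, with 118 fragments (enrichment 6.62, lower limit 5.48, against 4.64), and the Pax3 site 103.7 kb downstream, with 72 fragments (4.04, lower limit 3.16, against 2.84). With both lists scaled to the NT siRNA background, which equalises the background and not the fragments in peaks, the 7 became 4 and the 1 became 3, and with equal numbers of peaks they became 2 and 4. The site called after NT siRNA alone, in Pax7 88.6 kb downstream, had 20 fragments (5.15), and its lower limit was above what the H2A.Z siRNA list would have called, as at 90.7% of all such sites.

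Between the null and the NT siRNA list, which differ in transfection and in the number of libraries, 8 sites were called after NT siRNA and not in the null, and 5 in the null and not after NT siRNA. The shares of all sites were 14.9% and 10.1%. The 8 lay at Pax7 (4), Mef2d (3) and Myog (1). Of these, 3 were called in both siRNA lists and in neither untransfected list, beside 8.99% of all sites. All 8 had a lower limit above what the null was estimated to call (77.1% of all such sites). This was not corrected for the median ratio of NT siRNA to the null over all shared sites, 1.79. The 8 are thus not shown to exceed that general shift. None of the 5 had a lower limit above what the NT siRNA list would have called (36.9% of all such sites). Transfection and the preparation of these libraries cannot be told apart from each other.

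Sites called in both lists of a pair were compared by the ratio of their enrichments. Over 66194 shared sites the median ratio of null to WT was 1.51 (0.59 on the log2 scale), so ratios are given relative to that median. At 26 member sites the median ratio was 1.27, or 0.845 of the median of all sites, with a range from 0.364 to 2.01. The interval lay above the median of all sites at 1 member site and below it at 4, and included it at 21. At 1 of the 4 below, the Mef2a site 129.6 kb downstream, the WT and null peaks lay 414 bp apart and were joined into a site by a wider H2A.Z siRNA peak, so that 3 sites with overlapping peaks lay below. Over all shared sites the shares above and below were 12.8% and 9.37%.

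Myf6 held both directions. The site 7.7 kb before it, at chr10:107501931-107502773, had 44 fragments in WT (enrichment 4.97) and 77 in the null (15.0), a relative ratio of 2.01 (95% interval 1.37 to 2.98). The intronic Myf6 site was lower in the null, with a relative ratio of 0.507 (0.337 to 0.751). The other ratios of overlapping peaks below the median were at the Mef2c intronic site 28.2 kb downstream (enrichments of 11.4 and 6.25, 0.364) and the site 7.1 kb before Pax3 (59 and 30 fragments, 0.583). At the promoters of Mef2a, Mef2d and Pax3 the relative ratios were 0.995 (0.786 to 1.26), 1.06 (0.836 to 1.35) and 0.699 (0.457 to 1.06). Those of the Mef2c promoter sites 19.9 and 148.1 kb downstream were 0.773 (0.590 to 1.01) and 1.08 (0.819 to 1.43). Each of these intervals included the median of all sites.

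**Figure D4:**
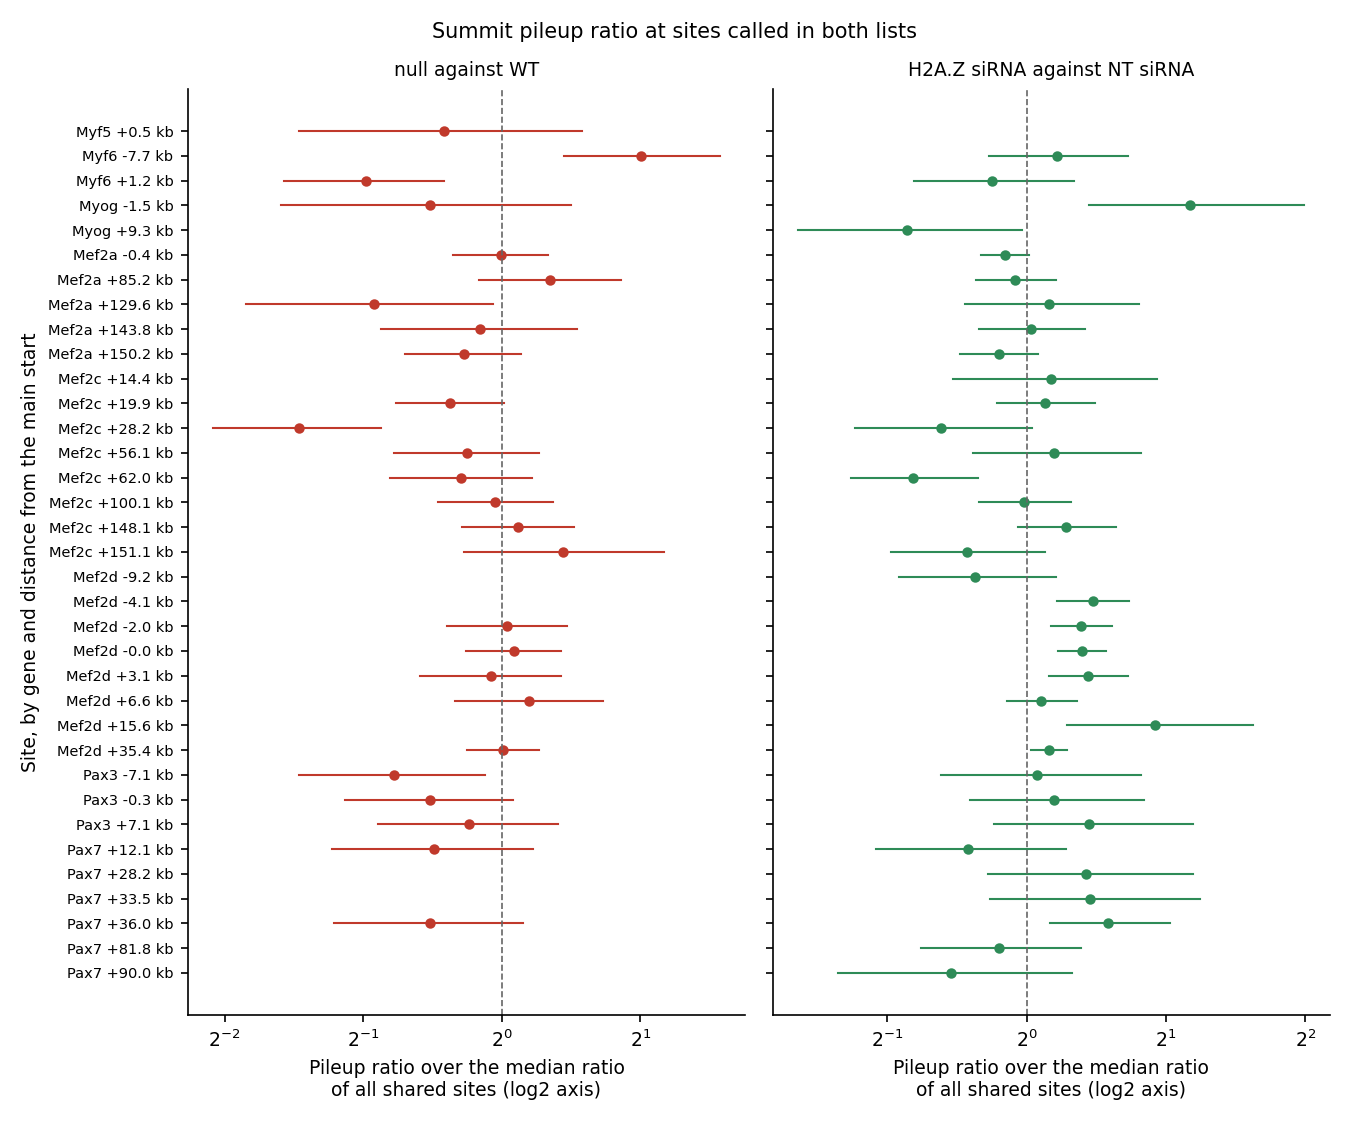
Ratio of enrichments at member sites called in both lists, over the median ratio of all shared sites (log2 axis), for null against WT (left) and H2A.Z siRNA against NT siRNA (right). Points are ratios and lines exact 95% intervals for counting error, and the dashed line at 1 is the median of all shared sites. On the left most lines cross 1, and the Mef2a site 129.6 kb downstream pairs peaks that do not overlap, and on the right the Myog upstream site and a run of Mef2d sites lie above it.

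Between the siRNA lists the median ratio of H2A.Z to NT siRNA over 81659 shared sites was 0.828 (-0.27 on the log2 scale). The 34 member sites had a median ratio of 0.916, or 1.11 of the median of all sites, with a range from 0.551 to 2.26. The interval lay above that median at 8 sites, below at 2, and included it at 24, where 17% and 15% of all shared sites lay above and below.

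The highest relative ratio was at the Myog upstream site, 2.26 (1.36 to 3.98), with pileups of 17 and 146 fragments and enrichments of 4.38 and 8.19. With local background taken into account its relative ratio of fold enrichments was 2.33. The other site of Myog, 9.3 kb downstream in an intron of its neighbour Ppfia4, had the lowest ratio, 0.551 (0.321 to 0.975), from 21 and 44 fragments. Of the 8 ratios above the median, 6 belonged to Mef2d. They ran from 1.12 at the site 35.4 kb downstream, which is 199 bp from the start of 1700113A16Rik, to 1.90 at the site 15.6 kb downstream, and the promoter had 1.32 (1.17 to 1.49). In fold enrichment, against the high local background of this gene, the relative ratio was 1.05 at the promoter and 0.992, the other side of the median, at the site 35.4 kb downstream. The Pax7 intronic site 36.0 kb downstream was another, with 55 and 314 fragments and an interval of 1.12 to 2.04. The 2 sites below were that of Myog in Ppfia4 and the Mef2c intronic site 62.0 kb downstream (61 and 132 fragments, 0.569). The Mef2a promoter had 0.898 (0.796 to 1.01) and the Pax3 promoter 1.15 (0.755 to 1.79).

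In the comparison of NT siRNA with the null, the median ratio over all shared sites was 1.79 (0.84 on the log2 scale). Of 27 member sites, 8 lay above that median and 8 below, beside 26.9% and 21.2% of all shared sites. The promoters of Mef2a (1.87) and Mef2d (1.75) were above, and the Pax3 promoter (0.530), the Mef2c promoter sites 19.9 and 148.1 kb downstream (0.66 and 0.60) and the site 7.7 kb before Myf6 (0.412) were below. In fold enrichment the relative ratios were 1.06 at Mef2a, 0.737 at Mef2d, 1.03 at Pax3, and 1.01 and 0.740 at the Mef2c sites, so that the direction at Mef2d, at Pax3 and at the first Mef2c site depended on the background used. The NT siRNA list is shared with the comparison before it.

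Motifs were searched on both strands, in the 300 bases around RefSeq starts and the 200 bases around summits. The E-box was searched as CANNTG, and its special forms CAGCTG and CAGGTG are also counted within it. The MEF2 element was searched in a strict form, CTA, 4 letters that are A or T, and TAG, and the CArG element as CC, 6 letters that are A or T, and GG. The stretch ctatatttat of the Myog promoter shown above is close to this MEF2 form but does not end in TAG, and is not counted. The AP-1 element was TGANTCA, the TEAD element GGAATG and the RUNX element TGTGGT. Of promoter elements, SP1 was GGGCGG, NF-Y was CCAAT and the TATA box TATAAA. The paired homeodomain site was TAAT followed 3 bases later by ATTA. A CANNTG E-box lay in 29 of the 50 member sites (58%, beside 66.9% of all sites). CAGCTG lay in 6 (12% beside 14.3%), CAGGTG in 8 (16% beside 10.7%) and AP-1 in 13 (26% beside 29.3%). TEAD was in 3 (6% beside 19.2%) and RUNX in 3 (6% beside 20.2%), and a MEF2 element in 1, the Mef2c site 62.0 kb downstream (2% beside 0.6%).

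The sequences shown above differ in these elements. The Myog promoter held a pair of E-boxes and a paired homeodomain site, where 72.3% of all RefSeq promoters held at least 1 E-box and 0.487% that homeodomain site. The Myog upstream site held CAGGTG in its reverse-strand form CACCTG, a second E-box, AP-1 and TEAD within 200 bases. The Mef2c site called without ANP32E held SP1 and NF-Y elements, which 9.72% and 23.9% of all sites held, and no E-box. The Pax7 site called without ANP32E held an E-box and AP-1, and the Mef2a site called in WT alone held CAGCTG. Of the 8 RefSeq promoters of 6 members, 3 held an E-box and 1, that of Mef2a, a MEF2 element, beside 0.557% of all promoters. A match is a description of the letters and not a bound site.

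The partners of the bHLH factors, E proteins and coactivators, had promoter peaks at 12 of 12 genes in every list, beside 63.8% of all protein-coding genes. Of their inhibitors, such as the ID genes and Twist1, 19 of 21 were called in every list. After H2A.Z siRNA 1 more inhibitor, Bhlha15 (MIST1), was called with 62 fragments, at the 15.5th percentile of fold enrichment. Of all promoters without an NT siRNA peak, 6.2% were called with H2A.Z siRNA. Of 8 other MEF2 and PAX genes 7 were called in every list.

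The contractile and fusion genes of skeletal muscle, the targets of the network, had promoter peaks at 13 of 37 in WT, 14 in the null, 16 after NT siRNA and 19 with H2A.Z siRNA, beside 67.2%, 66.7%, 66.8% and 68.4% of all promoters. No peak in any list was found at 16 of the 37, beside 28.8% of all promoters. In the null and not in WT, peaks were called at Mybpc2 (29 fragments), which encodes a fast myosin-binding protein, and Ryr1 (18 fragments), the calcium release channel. Cardiac actin Actc1 (23 fragments) was called in WT and not in the null. After H2A.Z siRNA and not NT siRNA, peaks were called at Tnnc1 (271 fragments), Mybpc2 (156) and Chrna1 (106) and at 1 gene beyond the naming rule, Acta1, and the reverse held for Cav3 (25). All but Tnnc1 and Cav3 of these stood below the 30th percentile of fold enrichment in their lists. Of all promoters without a WT peak 4.26% were called in the null, where 2 of these genes were. Of those without an NT siRNA peak 6.2% were called with H2A.Z siRNA, where 4 of these genes were. In the directions of Actc1 and Cav3, 5.67% of promoters without a null peak were called in WT. Of those without an H2A.Z siRNA peak, 1.53% were called after NT siRNA. Of 6 further myoblast markers, 3 of which are also in this list, 4 were called in WT, the null and after NT siRNA and 5 with H2A.Z siRNA.

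For comparison, neural bHLH and homeobox factors were called at 13 of 19 genes in WT, 12 in the null, 11 after NT siRNA and 15 with H2A.Z siRNA, and pluripotency factors at 11, 9, 10 and 12 of 15, beside 67.2%, 66.7%, 66.8% and 68.4% of all promoters. In the null and not in WT no gene of either list was called, and in WT and not in the null 1 neural gene (Neurog3) and 2 pluripotency genes (Lin28a and Prdm14) were, beside 5.67% of all promoters without a null peak. After H2A.Z siRNA and not NT siRNA, 4 neural genes (Neurod2, Olig2, Olig3 and Neurog3) and 2 pluripotency genes (Pou5f1 and Prdm14) were called, beside 6.2% of all promoters without an NT siRNA peak. The neural genes had 171, 105, 42 and 35 fragments in that order, and the pluripotency genes 82 and 37, where 32 was the smallest callable pileup. Olig3, Neurog3, Pou5f1 and Prdm14 stood between the 2.84th and 10.4th percentiles of fold enrichment.

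Of 13986 genes with a promoter peak in every list, those nearest to each member in its percentiles of fold enrichment over the 4 lists were taken. Nearest to Mef2a were Lrrc47, Efhd2 and Cdc37l1, at distances of 0.585 to 0.985 percentile points. Nearest to Mef2c were Pdap1 and Bud31, which share one promoter peak (1.61), and Pdzd9 (1.93). Nearest to Mef2d were Fosl1, Tk2 and St8sia1 (5.42 to 5.98), and to Pax3 Frs2, Foxd3 and Eef2 (2.99 to 6.88).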

How the data were processed

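Per the labels and the study's methods, the authors used Bowtie2 (mm10), Picard for duplicates and MACS2 in paired-end mode with no control, on merged libraries. The deposited values used were fold enrichment (a ratio, summit pileup plus 1 over local background plus 1), the −log10 p-value and −log10 q-value, and the summit offset. Peaks outside the assembled chromosomes (86 WT, 73 null) were left out. Pileup and local background were solved from fold and −log10 p under the Poisson model (whole within 0.05 fragments at 100% of peaks), by steps tested on simulated data. Peaks that overlapped or touched were merged into sites, and a list's highest fold stood for a site. Genes and starts were from GENCODE M21. Poisson and binomial intervals (95%) used scipy 1.17.1, and sequence samtools 1.23.1. All 9 members are named. Of the other lists, genes whose call differed between WT and null or between the siRNA lists are named, at most 6 per list by fold percentile. 1 further gene list is not reported here. Members and lists were chosen with earlier results of these data known, and the comparison with the smallest callable pileup and the restriction to sites with overlapping peaks were added after the values were seen. Alternatives were a −log10 q of 5, equal peak numbers, equal background (pileups scaled to the lower one), summits within windows, promoters of 500 bp, coding starts alone, other flanks and wider merging.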

Additional observations from a re-analysis of the deposited data

How the results depend on the processing

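Of 165 alternative values, 124 held, which meant within 1.5 times the main value for counts, inside its 95% interval for shares and within 1 SD for median ratios. With a −log10 q of 5 or more, the promoters without a WT peak that were called in the null went from 1 to 0 and those without an NT siRNA peak from 3 to 1, and sites called in the null fell to 3 (not in WT) and 1 (not in NT siRNA). With equal peak numbers 2 sites were called after H2A.Z siRNA alone of the pair and 4 after NT siRNA alone, and at equal background 4 and 3. With flanks of 50 kb, 66, 61, 71 and 88 sites were called in WT, null, NT siRNA and H2A.Z siRNA lists, 14 in WT and not the null, 22 after H2A.Z siRNA and not NT siRNA and 5 the reverse, 18 after NT siRNA and not in the null and 8 the reverse. In gene bodies alone 5 were called after NT siRNA and not in the null.

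The share of all promoters with a peak moved at most a few points. A −log10 q of 5 gave 64.4%, 64.6%, 65.7% and 67.8% in WT, null, NT siRNA and H2A.Z siRNA lists, summits within the window 65.7%, 65.3%, 65.4% and 66.5%, promoters of 500 bp 65.5%, 65.1%, 65.2% and 66.7%, and coding starts alone 65.7%, 65.3%, 65.4% and 67.0%. Equal background gave 65.7% in WT and 67.2% with H2A.Z siRNA, and equal peak numbers 66.0% after NT siRNA and 65.3% with H2A.Z siRNA. Dividing by the median of all shared sites turned the direction of the members' median enrichment ratio, to 0.845 for null against WT, 1.11 for H2A.Z against NT siRNA and 0.794 for NT siRNA against the null.

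No paired analysis was possible because the libraries of a group were merged into 1 peak list, and no replicate was left out. The weakest callable enrichment lay between 1.80 and 2.84 times background among lists, and the NT siRNA list rests on 1 library.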
